A study of Caenorhabditis elegans with 5 samples.

Results

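The windows described here carry a high tier of H3K9me3 in the deposited table but no mark of H3K9me3 loss and no mark as a nuclear RNAi target, and their wild-type (WT) pre-mRNA values come out as whole reads. Each window is 1 kb of the ce6 (WS190) genome. Of 100270 windows in all, 16015 met the rule, which asks for a tier of 1 to 4, no loss mark in any replicate of an H3K9 methyltransferase (HMT) mutant, no GRTS, GRH or misannotation mark, and a WT value of 0 or of a whole number of reads within 0.02 read. GRTS and GRH are the loci where earlier hrde-1 work placed transcriptional silencing and heterochromatin that depend on germline nuclear RNAi. A loss mark stands for an H3K9me3 ratio of mutant to WT at or below a cutoff set by the study, and each of 2 replicates of a mutant has its own mark. The members were chosen by their WT values, so each contrast with WT below is a description, and the pairs of libraries without WT are the triple mutant over set-32 and hrde-1 over met-2 set-25.

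The study sequenced RNA from chromatin pulled down with an antibody to RNA polymerase II that carries phosphate on serine 2 (pre-mRNA-seq), which enriches transcripts still being made. The 5 strains were set-32 with the allele ok1457, the double mutant of met-2 (n4256) and set-25 (ok5021), the triple mutant with these 3 alleles, hrde-1 with the allele written tm-1200 in the labels, and N2 as WT. All were whole young adults kept at 19 °C on OP50 bacteria, so germline and soma were measured together, and fewer cells of a type cannot be told apart from less RNA per cell. Each strain had 1 library, so no difference below has a replicate check, no p-value is given, and the windows are not replicates. By their codes, met-2 set-25, hrde-1 and WT belong to 1 library set and set-32 and the triple mutant to another, so the genotype cannot be told apart from the library set in set-32 over WT and in the triple mutant over WT.

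H3K9me3 is the trimethyl mark on lysine 9 of histone H3 that packs silent chromatin. In C. elegans it lies mostly on repeats and silent genes in the outer parts of the chromosomes, the arms. MET-2 and SET-25 are HMTs that act in sequence on this lysine, MET-2 placing the lower methyl states and SET-25 completing the trimethyl state. SET-32 is another putative H3K9 methyltransferase that works in the nuclear RNAi pathway, and HRDE-1 is an Argonaute of the germline that takes small RNAs into the nucleus.

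The smallest step of RPKM, the reads per kb scaled by sequencing depth, gave the worth of 1 read as 1.80 RPKM in set-32 worms, 1.49 in met-2 set-25 worms, 3.09 in triple mutant worms, 1.47 in hrde-1 worms and 0.912 in WT worms. These steps correspond to 556573, 670030, 323823, 678661 and 1096419 reads in the same order of libraries. A level of 20 RPKM therefore rested on between 6.48 reads (triple mutant) and 21.9 reads (WT). The rRNA gene windows took 27.8% of the set-32 library and 37.3% of the triple mutant library, against 4.64% to 8.90% of the others. Unmarked windows that are not members and have a mean of at least 5 RPKM were shifted from WT by a median of -0.56 on the log2 scale in set-32 and -0.90 in the triple mutant, and by -0.01 in met-2 set-25 and -0.12 in hrde-1. A ratio on a scale where these windows have a median of 1 is the deposited ratio times 1.48 for set-32 over WT, 1.00 for met-2 set-25 over WT, 1.87 for the triple mutant over WT, 1.09 for hrde-1 over WT, 1.23 for the triple mutant over set-32 and 1.08 for hrde-1 over met-2 set-25. Ratios are as deposited unless called rescaled.

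The group was almost entirely tier 4. Tier 1 had no member, since 99 of its 100 windows carried a loss mark and the last one had a WT value with a fraction of a read. Tier 2 had 4 members of 891 windows. Tier 3 had 585 members, 14.5% of its 4040 windows, and 3140 of those windows were marked. Tier 4 had 15426 members, 74.9% of its 20582 windows. A further 4737 unmarked windows of the 4 tiers had WT values that were not whole reads, as reads shared between repeats give. The sources used here do not define the tier. Tiers 1, 2, 3 and 4 held 0.0997%, 0.889%, 4.03% and 20.5% of all windows. Tiers 5, 6 and 7 held 25.1%, 25.1% and 23.8%. If the tiers rank windows by H3K9me3, which was not tested, tier 4 is a broad class below a small top. A window without a loss mark need not have kept its H3K9me3 in the mutants. Loss marks were carried by 99.0% of tier 1 windows, 98.8% of tier 2, 77.5% of tier 3 and 3.33% of tier 4. In tiers 5 to 7 the share was at most 0.00795%. The tier label thus ran with the loss marks from tier 1 to tier 4, and 96.3% of the members sat in the tier with few such marks.

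WT was at 0 in 7582 members and above 0 in 8433. The last windows inside the limit were V 18639001 to 18640000, with 89.4 RPKM or 98.0199 reads in WT, and III 978001 to 979000 with 3.63 RPKM. The first windows outside it were I 9546001 to 9547000, with 13.7 RPKM, and IV 1185001 to 1186000, with 17.31 RPKM. In the mutant libraries 95.1% to 97.1% of the members were also whole, and 14519 members (90.7%) were whole in all 5 libraries. A whole value does not show that each read had a single place in the genome, because fractions can add up to whole reads.

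Members lay in the chromosome arms, more so at the higher tier. Of the autosomal members, 98.9% in tier 3 and 83.3% in tier 4 were within the outer 30% of either side, against 51.4%, 42.9% and 49.7% of unmarked whole-read windows of tiers 5, 6 and 7. Marked whole-read windows of tiers 3 and 4 were at 97.2% and 83.9%, and unmarked windows of these tiers without whole WT reads at 85.4% and 78.8%. The place in the arms was thus not particular to the members. By construction the outer parts held 60.0% of all kept windows. Chromosome V had the highest share of its windows as tier 4 members (19.9%) and chromosome III the lowest (11.8%). On the X chromosome, tier 3 members made up 0.221% of the windows and tier 4 members 15.8%. In bins of 5% of chromosome length, members reached 49.9% of the windows on chromosome V and 48.2% on chromosome II, while the lowest bins had 5.36% and 2.88%. Windows with a loss mark took up to 74.9% of a bin on chromosome V and 53.7% on chromosome II.

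**Figure D1:**
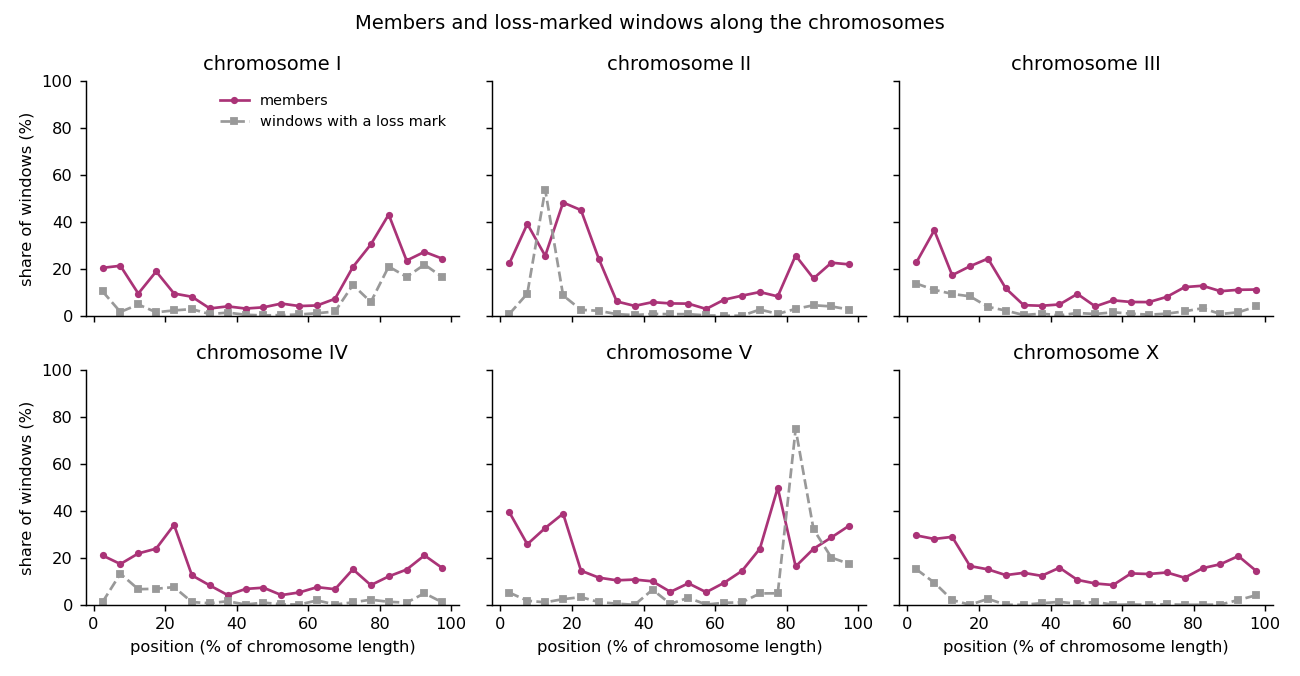
Share of kept 1 kb windows (y axis, %) that are members (circles) or carry a loss mark (squares) along each chromosome (x axis, % of its length, bins of 5%). Members reached 43.1% to 49.9% of a bin on chromosomes I, II and V and were fewest in the autosome centres.

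Members also touched the loss-marked windows. A loss-marked window was adjacent to 3 of the 4 tier 2 members, to 281 tier 3 members (48.0%) and to 973 tier 4 members (6.31%). The members formed 8478 runs of adjacent windows, of which 5269 were single windows, and 573 runs of at least 5 windows held 25.6% of the members. The longest run was V 3391001 to 3425000, 34 kb with a mean level of 0.054 RPKM in set-32 worms, 0.48 in met-2 set-25 worms, 0.45 in triple mutant worms, 0.086 in hrde-1 worms and 0.027 in WT worms. It rested on 11 reads in met-2 set-25 and on 1 read in WT, so these low means hold little information on any difference. The next longest, II 3150001 to 3173000 and IV 3917001 to 3940000, were 23 kb each, and WT had no read in either. These longest runs were nearly silent in all 5 libraries. A WT value of 0 always met the read rule, so their low WT values are set in part by the choice.

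The pre-mRNA level of the members was low in every strain, and a large part of them had no read. Because a WT value of 0 always met the read rule, the low WT level and WT share at 0 are set in part by the choice. Unmarked windows left out for WT values that were not whole reads had WT means of 17.8 RPKM in tier 3 and 8.95 RPKM in tier 4. The mean was 4.80 RPKM in set-32 worms, 5.57 in met-2 set-25 worms, 4.01 in triple mutant worms, 5.32 in hrde-1 worms and 5.28 in WT worms. The median was 1.49 RPKM in met-2 set-25 worms and 0.91 RPKM in WT worms, 1 read in each, and 0 in the other 3 libraries. The share of members at 0 was 57.0% in set-32, 45.6% in the met-2 set-25 library, 65.2% in the triple mutant, 52.1% in hrde-1 and 47.3% in WT. In unmarked whole-read windows of tier 5 that share was 59.4%, 44.4%, 65.5%, 52.8% and 46.3% in the same libraries. The shallowest library had the most zeros, while met-2 set-25 had fewer than the deeper hrde-1 and WT libraries. In all 5 libraries together 4058 members (25.3%) were at 0, against 23.9% in tier 5, 20.7% in tier 6 and 3.91% in tier 7. At the other end, 337 members (2.10%) were at 20 RPKM or more in every library, 16 of them in tier 3. That share was 3.83% over all kept windows, and 1.39%, 1.78% and 9.31% in unmarked whole-read windows of tiers 5, 6 and 7. Among unmarked whole-read windows, the members were thus about as quiet as tiers 5 and 6, and the break in level came between tier 6 and tier 7. Other windows of tiers 3 and 4 had higher means than the members in each library. Marked whole-read windows averaged 5.07 to 7.79 RPKM in tier 3 and 11.2 to 18.9 RPKM in tier 4. Unmarked windows without whole WT reads averaged 12.9 to 22.9 RPKM in tier 3 and 6.77 to 9.34 RPKM in tier 4.

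**Figure D2:**
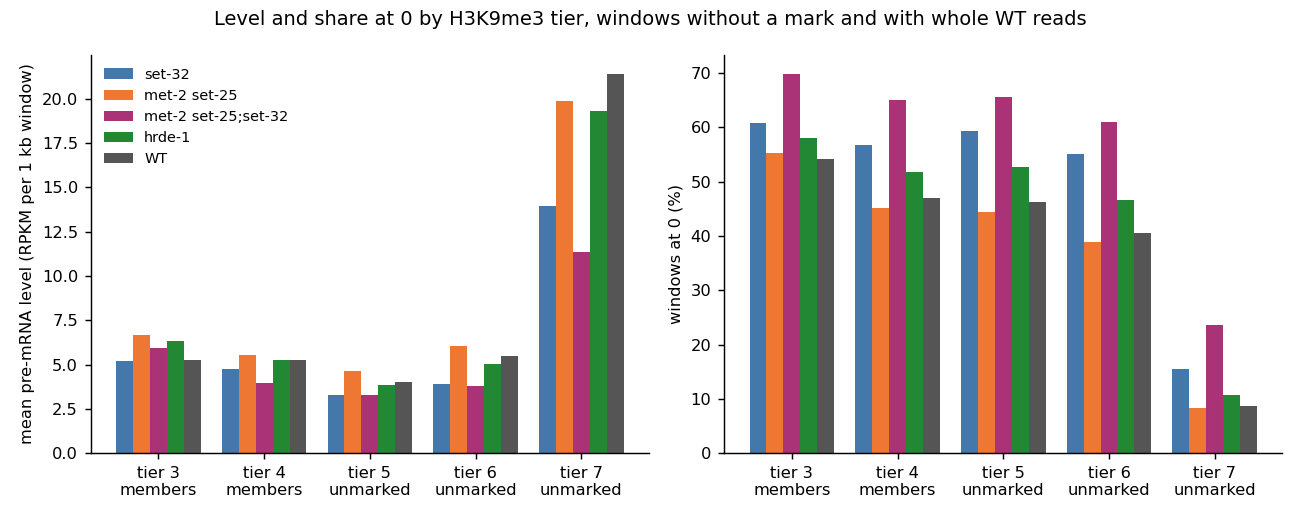
Mean RPKM per window (left) and share of windows at 0 (right) in the 5 libraries, for members of tier 3 and tier 4 and for unmarked windows of tiers 5 to 7 with whole WT reads. Means of tiers 3 to 6 lie between 3.27 and 6.70 RPKM in each library, and those of tier 7 between 11.4 and 21.4 RPKM.

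Tier 2 was silent. Of its 4 members, 3 were at 0 in all 5 libraries, among them II 3466001 to 3467000 and II 3468001 to 3469000. The remaining member, V 18175001 to 18176000, had 0.59 RPKM in hrde-1, less than 1 read, and 0 in the other libraries. Summed over the 4 windows no library reached the 3 reads that a count of 0 still allows.

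Tier 3 had a higher mean than tier 4 in the 4 mutants, but through few windows. The mean of tier 3 members was 5.22 RPKM in set-32 worms, 6.70 in met-2 set-25 worms, 5.95 in triple mutant worms, 6.31 in hrde-1 worms and 5.26 in WT worms. Tier 4 members had 4.78, 5.53, 3.94, 5.28 and 5.28 RPKM in the same libraries. The ratio of tier 3 to tier 4 was 1.51 in the triple mutant (95% counting interval 1.42 to 1.60, exact Clopper-Pearson on reads), 1.21 in met-2 set-25 (1.16 to 1.26), 1.19 in hrde-1 (1.15 to 1.24), 1.09 in set-32 (1.04 to 1.15) and 0.995 in WT (0.961 to 1.03). These intervals hold counting error alone and no error of sampling worms or of PCR copying. The 10 highest tier 3 windows of each library held 53.0% to 63.5% of the tier 3 sum. With the highest 2% of each tier left out (12 windows of tier 3 and 309 of tier 4), the ratio was 0.899 in the triple mutant, 0.716 in met-2 set-25, 0.829 in hrde-1, 0.886 in set-32 and 0.740 in WT. Outside these windows tier 3 thus had a lower mean than tier 4 in each library, and 30.6% of tier 3 members had no read in any library, against 25.1% in tier 4.

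The highest tier 3 windows were a pair on the right arm of chromosome V. V 19201001 to 19203000 had 263 RPKM in set-32 worms, 516 in met-2 set-25 worms, 599 in triple mutant worms, 433 in hrde-1 worms and 286 in WT worms. The triple mutant stood 2.28-fold above set-32 (1.95 to 2.66) and met-2 set-25 1.81-fold above WT (1.62 to 2.02), but the 2 windows, set apart after their values were seen, differed. V 19201001 to 19202000 had 228, 524, 877 and 336 RPKM in the mutants and 214 RPKM in WT, so the strains without MET-2 and SET-25 were highest. V 19202001 to 19203000 had 298, 509, 321 and 530 RPKM in the mutants and 358 RPKM in WT. In that window hrde-1 and met-2 set-25 were highest, and the triple mutant over set-32 was 1.08 (0.834 to 1.38). V 16593001 to 16594000, also of tier 3, differed less, with 275, 324, 207 and 276 RPKM in the mutants and 255 RPKM in WT. II 582001 to 583000 had 47.6 RPKM in set-32 worms, 36.6 in met-2 set-25 worms, 34.0 in triple mutant worms, 283 in hrde-1 worms and 26.5 in WT worms. Here hrde-1 alone was high, 10.7-fold over WT (7.21 to 16.4) and 7.74-fold over met-2 set-25 (4.98 to 12.0), and this window had the largest hrde-1 ratio of tier 3.

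The highest tier 4 members were IV 8263001 to 8265000 and X 16930001 to 16931000. The first pair had 2205 RPKM in set-32 worms, 978 in met-2 set-25 worms, 1109 in triple mutant worms, 1938 in hrde-1 worms and 1277 in WT worms. Together with 2 further members of the block IV 8261001 to 8266000, chosen after the values were seen, it was 2.01-fold higher in hrde-1 than in met-2 set-25 (1.91 to 2.12). The same block had 0.489 of the set-32 level in the triple mutant (0.459 to 0.521). The triple mutant over WT was 0.858 in the block (0.806 to 0.913) as deposited and 1.61 rescaled, while met-2 set-25 over WT was 0.759 (0.722 to 0.798) and 0.762 rescaled. X 16930001 to 16931000 had 1179 RPKM in set-32 worms, 1745 in met-2 set-25 worms, 954 in triple mutant worms, 1683 in hrde-1 worms and 1103 in WT worms.

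Summed over all members, the pairs of libraries differed little beside these blocks. The summed level in the triple mutant was 0.837 of that in set-32 (0.823 to 0.851), and in hrde-1 it was 0.955 of that in met-2 set-25 (0.944 to 0.966). Against WT the ratio was 0.908 in set-32 (0.898 to 0.919), 1.05 in met-2 set-25 (1.04 to 1.07), 0.760 in the triple mutant (0.748 to 0.771) and 1.01 in hrde-1 (0.997 to 1.02). Rescaled to unmarked windows that are not members, these 6 ratios became 1.03, 1.03, 1.34, 1.06, 1.42 and 1.09. On that scale none lay below 1, but the 2 largest were not particular to the members in direction. Other unmarked windows were also above 1, at 1.19 for the triple mutant over WT and 1.07 for set-32 over WT. In the same order, unmarked whole-read windows of tier 5 had 1.53 and 1.20, the first above the members' 1.42. Those of tier 7 had 0.993 and 0.963. The median log2 ratio over the members was 0 in all 6 pairs because many windows were equal, most of them at 0. In the triple mutant over set-32, 3580 members had a higher value, 4708 a lower one and 7727 the same, and in hrde-1 over met-2 set-25 the counts were 3540, 6597 and 5878. Against WT, higher and lower values numbered 3634 and 6079 in set-32, 3283 and 6088 in the triple mutant, 5916 and 4633 in met-2 set-25 and 4557 and 5381 in hrde-1. These counts also move with depth, since a shallower library has more zeros.

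Without the IV block the ratio of the triple mutant to set-32 was 0.877 (0.862 to 0.892) and that of hrde-1 to met-2 set-25 was 0.912 (0.902 to 0.923). Over other unmarked windows the same ratios were 0.880 (0.875 to 0.886) and 0.939 (0.936 to 0.943). Rescaled, the members without the block were at 1.08 and 0.983, and the other windows at 1.08 and 1.01. In the pair with set-32 the members without that block and the other windows had overlapping intervals, and in the pair with met-2 set-25 the members were slightly lower. By chromosome, the ratio of the triple mutant to set-32 ran between 0.780 on chromosome IV and 0.935 on chromosome I, and that of hrde-1 to met-2 set-25 between 0.853 on chromosome I and 1.15 on chromosome IV, where the block lies. Rescaled, the ranges were 0.959 to 1.15 and 0.919 to 1.24.

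The tier 3 sums leaned on the highest windows as well. The triple mutant over set-32 was 1.14 in tier 3 (1.06 to 1.23) and 0.824 in tier 4 (0.810 to 0.838). Without the chromosome V pair the tier 3 ratio was 0.904 (0.825 to 0.988), and without the 10 highest tier 3 windows 0.919 (0.813 to 1.03). Rescaled, tier 3 was at 1.40, tier 4 at 1.01, tier 3 without the pair at 1.11 and tier 3 without the 10 highest at 1.13, so all were above 1 on that scale. Against WT, tier 3 had a ratio of 0.992 in set-32 (0.935 to 1.05), 1.27 in met-2 set-25 (1.21 to 1.34), 1.13 in the triple mutant (1.06 to 1.21) and 1.20 in hrde-1 (1.14 to 1.26). Without its 10 highest windows the intervals of set-32 (0.867 to 1.03), met-2 set-25 (0.993 to 1.16) and hrde-1 (0.973 to 1.14) held 1, while the triple mutant was at 0.869 (0.777 to 0.967) as deposited and at 1.63 after rescaling.

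**Figure D3:**
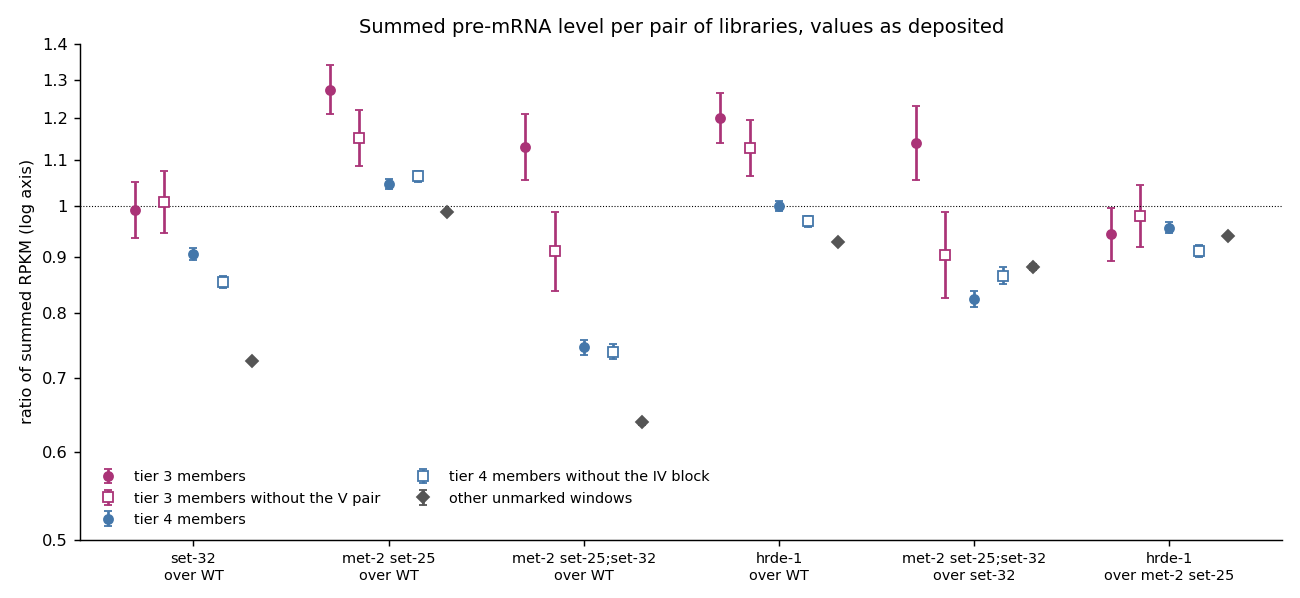
Ratio of summed RPKM (log axis) for 6 pairs of libraries, for tier 3 and tier 4 members with and without a block of high windows, and for other unmarked windows. Bars are 95% counting intervals; the tier 3 ratio of the triple mutant to set-32 was 1.14 with the chromosome V pair and 0.904 without it as deposited, and 1.40 and 1.11 rescaled.

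Among members with a mean of at least 5 RPKM (2985 windows), the median ratio to WT, after adding 1 RPKM to each value, was 0.797 in set-32 and 0.664 in the triple mutant, against 1.01 in met-2 set-25 and 0.894 in hrde-1. In set-32 it was 0.889 in tier 3 members and 0.781 in tier 4 members, against 0.770, 0.705 and 0.637 in unmarked whole-read windows of tiers 5, 6 and 7. In the triple mutant it was 0.840 and 0.658 in tier 3 and tier 4 members, against 0.692, 0.612 and 0.475 in tiers 5, 6 and 7. The 2 libraries with the large rRNA share thus had the lowest medians at tier 7, the most active tier, and the part of that share in this order was not tested. In the triple mutant over set-32, which come from the same set, the medians were 0.977, 0.869, 0.891, 0.877 and 0.747 from tier 3 to tier 7. Rescaled, the members' medians over WT were 1.13 in set-32, 1.20 in the triple mutant, 1.01 in met-2 set-25 and 0.967 in hrde-1, so set-32 and the triple mutant changed direction. Tier 7 was at 0.916 in set-32 and 0.841 in the triple mutant on that scale, and still the lowest tier in both.

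Single members were called higher or lower where the ratio, with 1 RPKM added to both values, reached 2 in either direction and 1 of the values was 20 RPKM or more. In the triple mutant over set-32, 810 members could be called, of which 85 (10.5%) were higher and 200 (24.7%) lower, beside 8.04% higher and 27.1% lower of all kept windows. In hrde-1 over met-2 set-25, 1155 could be called, with 113 (9.78%) higher and 182 (15.8%) lower, beside 6.99% and 9.93% of all kept windows. In met-2 set-25 over WT, 144 of 1213 (11.9%) were higher and 114 (9.40%) lower, beside a background of 7.29% and 7.70%. In hrde-1 over WT, 94 of 1138 (8.26%) were higher and 128 (11.2%) lower, beside 4.80% and 7.08%. The members' shares lay above the background in 7 of these 8 counts, at 0.911 to 1.72 times its level. Those of unmarked whole-read windows of tier 5 lay above it in 6, with 15.4% higher and 23.2% lower in the triple mutant over set-32, 5.62% and 19.9% in hrde-1 over met-2 set-25, 16.5% and 8.63% in met-2 set-25 over WT, and 6.84% and 11.8% in hrde-1 over WT. Tier 7 had fewer calls in 7 of the 8, for example 4.36% higher in met-2 set-25 over WT, and it supplied 8958 of the 16305 windows behind that background. Rescaled, the balance of the calls turned in the triple mutant over set-32, with 182 members (20.3%) higher and 122 (13.6%) lower, beside 16.9% and 16.0% of all kept windows. It turned in hrde-1 over WT as well, with 124 (10.5%) higher and 89 (7.56%) lower, beside 6.63% and 4.94%. In hrde-1 over met-2 set-25 the rescaled counts were 135 (11.1%) higher and 164 (13.5%) lower, beside 9.03% and 8.06% of all kept windows. In met-2 set-25 over WT they were 145 (12.0%) and 114 (9.40%), beside 7.35% and 7.63%.

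The largest differences of single members mostly rested on few reads. II 10934001 to 10935000 had 670 RPKM in set-32 worms, 31.3 in met-2 set-25 worms, 374 in triple mutant worms, 774 in hrde-1 worms and 510 in WT worms. It held only 21 reads in met-2 set-25, against 525 in hrde-1 and 559 in WT, and hrde-1 was 24.7-fold above met-2 set-25 (16.0 to 40.2). The triple mutant lacks MET-2 and SET-25 as well and kept 0.558 of the set-32 level (0.450 to 0.686), so the very low value was seen in the met-2 set-25 library alone. V 12555001 to 12556000 had 7.19 RPKM in set-32 worms, 37.3 in met-2 set-25 worms, 0 in triple mutant worms, 25.1 in hrde-1 worms and 88.5 in WT worms, so WT was highest and the triple mutant had no read.

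IV 9225001 to 9226000 had 5.39 RPKM in set-32 worms, 0 in met-2 set-25 worms, 0 in triple mutant worms, 36.8 in hrde-1 worms and 1.82 in WT worms. With the 0 taken as 3 reads, it was 8.23-fold higher in hrde-1 than in met-2 set-25, and IV 9227001 to 9228000 nearby was 4.61-fold higher. Such folds leave out the counting error of the higher value, so they are not lower limits. V 2782001 to 2783000 had 12.6, 28.4, 18.5 and 19.2 RPKM in the 4 mutants and 0 in WT. On the same basis it was 10.4-fold higher in met-2 set-25 than in WT. II 2586001 to 2587000 had 29.9 RPKM in met-2 set-25 and 0 in WT, 10.9-fold higher on that basis, with at most 9.26 RPKM in the other mutants. IV 4390001 to 4391000, chosen after its values were seen, had 364 RPKM in set-32 worms, 278 in met-2 set-25 worms, 1363 in triple mutant worms, 243 in hrde-1 worms and 183 in WT worms. The triple mutant was 3.75-fold above set-32 there (3.17 to 4.45), while met-2 set-25 was 1.52-fold above WT (1.24 to 1.87).

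Loss of MET-2 and SET-25 was sampled in the pairs met-2 set-25 over WT and triple mutant over set-32, which share no library. Of the 708 members that could be called in both, 24 (3.39%) were higher in both and 25 (3.53%) lower in both, beside 1.50% and 3.10% of all kept windows. Another 5 members were called in opposite directions. Among these 708, the 24 were 39.3% of the 61 higher in met-2 set-25 and 46.2% of the 52 higher in the triple mutant, while the 25 were 47.2% of the 53 lower and 14.6% of the 171 lower. Over all kept windows the same shares were 33.6%, 23.8%, 46.4% and 11.4%. Unmarked tier 5 windows had 5.28% higher in both, so the share was not particular to the members. With the values rescaled, 32 of 748 members (4.28%) were higher in both and 17 (2.27%) lower in both, beside 2.28% and 2.12% of all kept windows, so the lower share was near the background. The counting intervals of both pairs lay above 1 in 20 of the 24 and below 1 in 9 of the 25. The same values chose these windows, so their intervals are set in part by the choice and are no separate check.

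**Figure D4:**
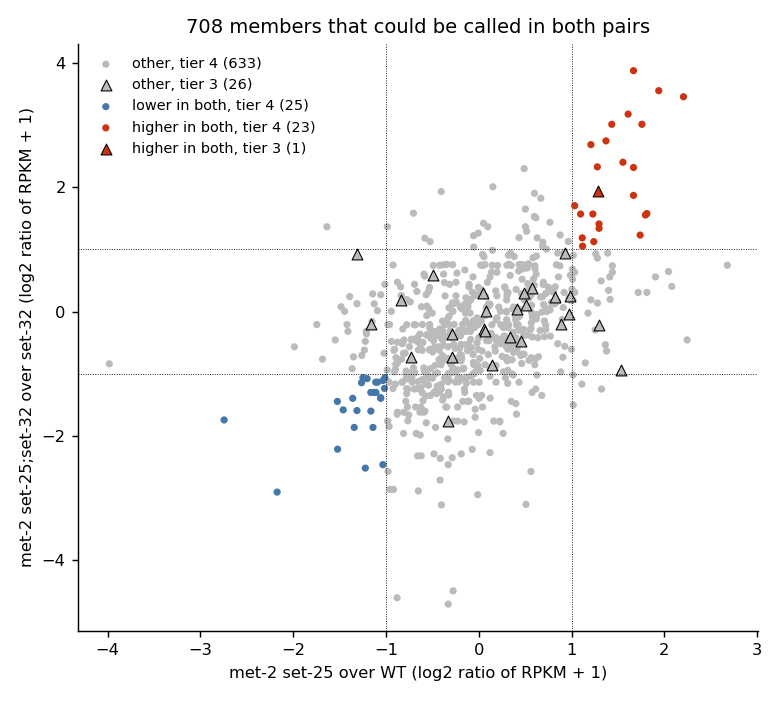
Log2 ratio of RPKM + 1 in met-2 set-25 over WT (x axis) and in the triple mutant over set-32 (y axis) for the 708 members that could be called in both pairs. Dotted lines mark a ratio of 2 in either direction; 24 members lie in the upper right and 25 in the lower left.

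The members higher in both pairs included a block on chromosome X. X 12468001 to 12475000 is 7 kb, and each of its 6 member windows was called higher in both. Its members averaged 14.1 RPKM in set-32 worms, 46.8 in met-2 set-25 worms, 83.9 in triple mutant worms, 30.2 in hrde-1 worms and 14.1 in WT worms. The triple mutant stood 5.96-fold above set-32 (4.29 to 8.43), met-2 set-25 3.31-fold above WT (2.57 to 4.29) and hrde-1 2.14-fold above WT (1.62 to 2.83), whereas set-32 over WT was 0.996 (0.686 to 1.43). The block was chosen after its values were seen, and 18 members were higher in both without it. In all, 10 of the 24 lay on the X chromosome, 6 of them in the block, and 1 of the 25 lower in both. The X chromosome held 22.9% of the members that could be called in both pairs, against 5.76% of all such windows. Of those on X, 6.17% of the members and 4.74% of all kept windows were higher in both, and 0.617% and 3.09% lower in both.

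X 7687001 to 7688000 had 5.39 RPKM in set-32 worms, 34.3 in met-2 set-25 worms, 74.1 in triple mutant worms, 20.6 in hrde-1 worms and 8.21 in WT worms. V 1991001 to 1992000 had 1.80, 25.4, 40.2 and 22.1 RPKM in the mutants and 7.30 in WT. Both windows were high in the 2 strains without MET-2 and SET-25 and intermediate in hrde-1. Over the 24 members the median was 22.1 RPKM in hrde-1 worms and 14.6 RPKM in WT worms, but a low WT value was part of the choice, so nothing is read from that difference. None of the 24 was next to a loss-marked window, and 1 was of tier 3. Of the 708 members that could be called in both pairs, 27 were of tier 3. Next to a loss-marked window were 147 of the 1213 members that could be called in met-2 set-25 over WT. In the triple mutant over set-32 they were 100 of 810.

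The members lower in both pairs were spread over all 6 chromosomes, and none was adjacent to another. X 7728001 to 7729000, the highest of them, had 544 RPKM in set-32 worms, 240 in met-2 set-25 worms, 246 in triple mutant worms, 555 in hrde-1 worms and 576 in WT worms, so the strains with MET-2 and SET-25 were close to each other. III 9505001 to 9506000 had 80.0, 10.5, 23.2 and 25.1 RPKM in the mutants and 75.7 RPKM in WT, where hrde-1 was low as well. Of the 25, 7 were next to a loss-marked window, beside 7.85% of all members. With so few windows, the difference from the members higher in both was not tested.

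**Figure D5:**
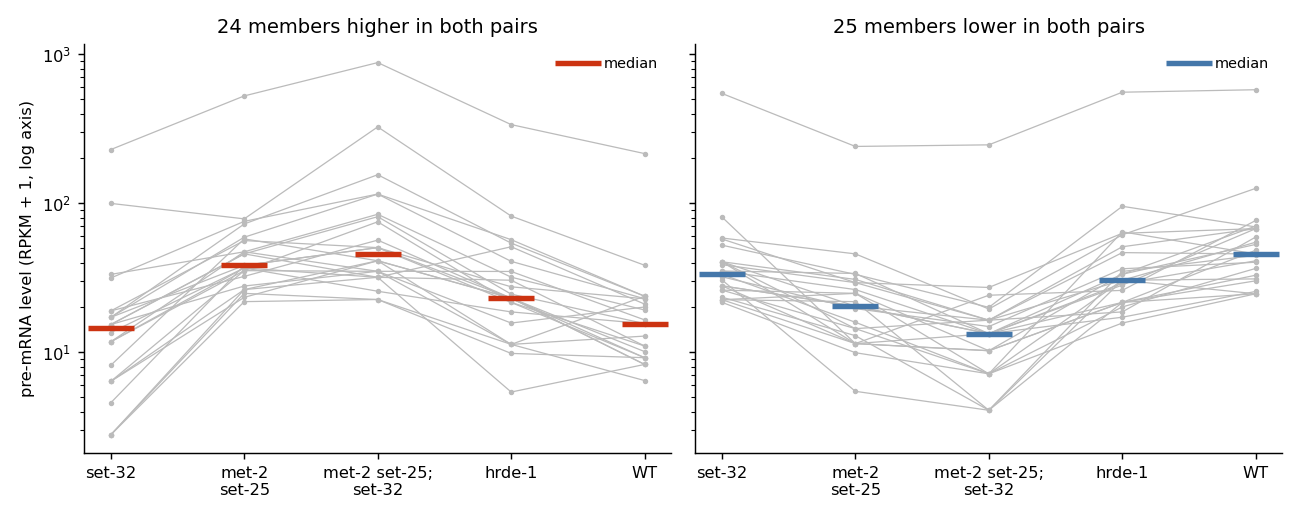
RPKM + 1 (log axis) in each library for the 24 members higher in both pairs (left) and the 25 lower in both (right); each grey line is 1 window and the bars are medians. The values of all libraries but hrde-1 chose these windows, so the order of the medians against WT is set in part by the choice; hrde-1 had a median of 22.1 RPKM on the left and 29.5 RPKM on the right.

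Members near GRTS windows differed in hrde-1. Of the 58 members within 2 kb of a GRTS window, 10 could be called, of which 9 were higher and none lower in hrde-1 over WT. The mean over the 58 was 2.58 RPKM in set-32 worms, 2.97 in met-2 set-25 worms, 1.88 in triple mutant worms, 11.7 in hrde-1 worms and 2.72 in WT worms. The summed ratio of hrde-1 to met-2 set-25 was 3.94 (3.21 to 4.89) and to WT 4.30 (3.60 to 5.15). Among the 15957 members farther away, 85 of 1128 were higher and 128 lower, and the ratio to WT was 1.00 (0.991 to 1.01). The authors drew GRTS from earlier hrde-1 work, so this is not independent evidence of its direction.

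V 15165001 to 15166000 had 18.0 RPKM in set-32 worms, 23.9 in met-2 set-25 worms, 21.6 in triple mutant worms, 143 in hrde-1 worms and 19.2 in WT worms. II 4210001 to 4211000 had 5.39, 4.48, 3.09 and 56.2 RPKM in the mutants, the last in hrde-1, and 4.56 RPKM in WT. II 2153001 to 2154000 had 33.4 RPKM in hrde-1 and 0 in WT, with at most 2.02 RPKM in the HMT mutants. With the 0 taken as 3 reads, hrde-1 was 12.2-fold higher than WT, which is not a lower limit. V 20306001 to 20307000 had 28.0 RPKM in hrde-1 and 0 in WT, 10.2-fold higher on the same basis. In each of these 4 windows hrde-1 was the highest library, and V 20306001 to 20307000 also had 10.8 RPKM in set-32.

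Members next to a loss-marked window, 1257 in all, had no higher ratios than the rest in the HMT mutants. Their mean level was higher than that of the rest in each library, for example 6.99 against 5.45 RPKM in met-2 set-25 and 7.33 against 5.11 RPKM in WT. The triple mutant over set-32 had a ratio of 0.806 in them (0.762 to 0.851) and 0.840 (0.825 to 0.855) in members not next to one. Met-2 set-25 over WT had 0.954 (0.924 to 0.986) and 1.07 (1.06 to 1.08), and hrde-1 over met-2 set-25 0.988 (0.953 to 1.02) and 0.952 (0.940 to 0.963). Rescaled, these 6 ratios were 0.991, 1.03, 0.958, 1.07, 1.06 and 1.02. Of the 147 that could be called in met-2 set-25 over WT, 14 (9.52%) were higher and 21 (14.3%) lower. The shares were 7.29% and 7.70% over all kept windows and 11.9% and 9.40% over all members.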

How the data were processed

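Pre-mRNA-seq was measured in 5 strains with 1 library each. The authors aligned reads to WS190 (ce6) with Bowtie 0.12.7, used perfect alignments only, counted a read with N places as 1/N at each, and deposited 1 RPKM value for each 1 kb window and library. The deposited table also holds a score, the H3K9me3 tier, whose definition is not given in the sources used here, and yes marks. The strain codes of the loss marks were read as the double and triple mutants. Coordinates are ce6, counted from 1. Gene annotation was not used here.

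Reads were recovered from the smallest step of each library. Between 78.1% and 79.7% of positive values were whole within 0.02 read. Of 100270 windows, 506 marked misannotated were left out. Sums were compared by ratio with an exact Clopper-Pearson 95% interval on reads. A 0 was taken as 3 reads, and a fold over it carries no counting error of the higher value. No test was run and the check of the calculations used simulated libraries. Named windows were, per tier, the 3 members of highest mean, up to 5 largest and 5 smallest called ratios per pair, and the 3 longest runs, of which the text gives a part. Members and lists were chosen with earlier results of these data known. Other tolerances, scalings, pseudocounts (0.1 and 5 RPKM) and minimum levels were tried. Python 3.11.15 with pandas 2.3.3 and scipy 1.17.1 was used.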

Additional observations from a re-analysis of the deposited data

Results flagged for a closer look

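Loss of MET-2 and SET-25 had opposite directions over the members in the 2 backgrounds that were sampled. Summed over the 16015 members, the ratio of met-2 set-25 to WT was 1.05 (1.04 to 1.07) and that of the triple mutant to set-32 was 0.837 (0.823 to 0.851). The difference between the backgrounds was not tested, since each strain has 1 library. After rescaling to unmarked windows that are not members the ratios were 1.06 and 1.03, so the opposite directions depend on the scale. As deposited, unmarked whole-read windows of tier 6 had 1.10 and 0.972, so the opposite directions were not particular to the members. Those of tier 5 had 1.15 and 1.00, and other unmarked windows had 0.988 and 0.880. The rRNA windows took 37.3% of the triple mutant library and 27.8% of the set-32 library, against 5.73% of met-2 set-25 and 4.64% of WT, and their part in the result was not tested.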

How the results depend on the processing

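No paired analysis was possible because each genotype has 1 library. A level of tier 1 over tier 4 could not be given, since tier 1 has no member, and tier 3 over tier 4 was taken in its place after seeing the data. Depth limits single windows most, as 20 RPKM is 6.48 reads in the triple mutant. Tolerances of 0.01 and 0.05 read moved no result out of its interval and no count by over 1.5 times.

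Ratios of sums over members depended on the scale. Rescaled to unmarked windows that are not members, they were 1.34 (set-32 over WT), 1.42 (triple mutant over WT), 1.03 (triple mutant over set-32) and 1.03 (hrde-1 over met-2 set-25), each reversed, and 1.09 (hrde-1 over WT). Scaled without the rRNA windows they were 1.20 and 1.15 for set-32 and the triple mutant over WT, both reversed, 1.07 and 1.05 for met-2 set-25 and hrde-1 over WT, 0.963 for the triple mutant over set-32 and 0.988 for hrde-1 over met-2 set-25. On the scale of unmarked windows, sums over other unmarked windows were above 1 too, at 1.07 (set-32 over WT) and 1.19 (triple mutant over WT). The cause was not tested. For the pairs over WT (set-32, then met-2 set-25, then the triple mutant, then hrde-1), the triple mutant over set-32 and hrde-1 over met-2 set-25, members whole in all 5 libraries gave 0.873, 1.07, 0.744, 0.991, 0.852 and 0.927. Leaving out the 10 highest members, a choice made after seeing the data like the blocks below, gave 0.839, 1.07, 0.731, 0.958, 0.872 and 0.892. Without the chromosome IV block the values were 0.860 (set-32), 1.07 (met-2 set-25) and 0.977 (hrde-1) over WT, 0.877 for the triple mutant over set-32 and 0.912 for hrde-1 over met-2 set-25. With no loss-marked window adjacent, set-32 over WT was at 0.923, met-2 set-25 over WT at 1.07 and the triple mutant over WT at 0.775.

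In tier 3 without the chromosome V pair, the triple mutant over WT (0.911) and over set-32 (0.904) reversed as deposited but not when rescaled (1.71 and 1.11), and met-2 set-25 and hrde-1 over WT were 1.15 and 1.13. Without the 10 highest tier 3 members these values were 0.869, 0.919, 1.07 and 1.05. Rescaled, tier 3 gave 1.47 (set-32), 2.12 (triple mutant) and 1.30 (hrde-1) over WT, 1.40 (triple mutant over set-32) and, reversed, 1.02 (hrde-1 over met-2 set-25).

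The level of tier 3 over tier 4, with the libraries in the order used above and WT last, was 0.621, 0.545, 0.654, 0.604 and 0.544 without the 10 highest of each tier, which takes a larger share of tier 3, 0.886, 0.716, 0.899, 0.829 and 0.740 without the highest 2% of each tier (the mutants reversed in both), 1.32, 1.40, 1.81, 1.31 and 1.16 in members whole in all libraries, and 1.43, 1.64, 2.17, 1.57 and 1.35 with no loss-marked window adjacent. Without chromosome X it was 0.979 in set-32 (reversed) and 0.936 in WT. The share at 0 without chromosome X was 58.3%, 46.8%, 66.3%, 53.9% and 49.2%, and in members whole in all libraries 59.3%, 48.2%, 67.0% and 54.7% in the mutants.

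With 10 RPKM as the minimum of the larger value, the higher and lower counts were 442 and 278 (met-2 set-25 over WT), 229 and 315 (hrde-1 over WT), 267 and 495 (triple mutant over set-32), and 274 and 521 (hrde-1 over met-2 set-25). At 50 RPKM they were 38 and 24, 28 and 24, 18 and 44, and 31 and 43. Shares over all kept windows were not taken at these minimum levels, so the counts show only the effect of the minimum. Rescaled to unmarked windows the triple mutant over set-32 had 182 higher and 122 lower members, and 140 higher when scaled without rRNA windows. A pseudocount of 5 RPKM left 70 lower in hrde-1 over WT. Of the 88 alternatives for these counts, 68 stayed within 1.5 times. Restricted to members that average 5 RPKM or more, the median log2 ratio over WT was -0.33 in set-32 and -0.59 in the triple mutant, 0.0089 in met-2 set-25 and -0.16 in hrde-1, and it was -0.20 for the triple mutant over set-32 and -0.16 for hrde-1 over met-2 set-25. Rescaled medians of the same members over WT were ratios of 1.13 in set-32 and 1.20 in the triple mutant, the opposite direction. Members directly next to a GRTS window had 6.58 in hrde-1 over WT.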
